A study of Mus musculus with 24 samples.

Results

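The axon guidance genes of the mouse lung were followed here from postnatal day 1 to day 42: the semaphorins of classes 3 to 7 and their plexin receptors, the ephrins and their Eph receptors, the slits and their Robo receptors, and the netrins with their Unc5 receptors. Members were chosen by symbol, as every gene whose RefSeq symbol began with Sema3 to Sema7, Plxna to Plxnd, Efna, Efnb, Epha or Ephb, or was Slit1 to Slit3, Robo1 to Robo4, Ntn1, Ntn3, Ntn4 or Unc5a to Unc5d. The array carried 65 such genes of 19722 genes with a symbol and a probe measured on every array: 20 semaphorins, 9 plexins, 8 ephrins, 14 Eph receptors, 3 slits, 4 Robos, 3 netrins and 4 Unc5 receptors. A further symbol that the rule matched, Plxna4os1, an antisense RNA at the Plxna4 locus, had no probe. Testing required a probe with 4 or more arrays well above background, which 62 members had, of 15911 genes in all. Of these, 57 were well above background on all 24 arrays, Epha3 and Ntn4 on 23, Sema5b on 21, Robo3 on 18 and Sema3d on 11. The Eph receptor Epha10 was well above background on 0 arrays, and Epha6 and the netrin receptor Unc5d on 1 each, so these 3 genes were not tested.

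Whole lungs of healthy C57BL/6 mice were sampled at postnatal days 1, 4, 7 and 14, with 5 biological replicates each, and at day 42, labelled as 6 weeks, with 4. Total RNA was hybridised to 1-colour Agilent arrays, and the labels name no treatment and no altered gene. The labels do not state that each replicate was a single animal, so the p-values measure the spread between these samples. Every sample is labelled postnatal, although the word fetal appears in the title of the series.

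Guidance molecules were first known as cues that attract or repel growing axons, and the same ligands and receptors also steer migrating cells, vessel sprouts and epithelial buds. Semaphorins signal through plexins, with neuropilins as co-receptors for the secreted class 3, while ephrins are tethered to the cell surface and signal both into the Eph-bearing cell and back into their own. Secreted slits bind Robo receptors, and netrins bind Dcc, neogenin and Unc5 receptors. In the lung, members of these families are known from airway branching, from the patterning of arteries and veins, and from the endothelium.

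Levels are given as log2 of the processed signal minus the 75th percentile of that array, so that 0 marks that percentile. A level is comparable between arrays for 1 gene, not between genes, since each probe has its own brightness. Replicates are listed in the order of their numbers, and ± stands for the SD of a mean level and for the limma standard error of a difference. Of the 24 arrays, 5 stood apart and are called the low-signal arrays: replicates 4 and 5 of day 1, replicates 1 and 3 of day 4 and replicate 4 of day 42. Their 75th percentiles were 476.1 to 979.3 intensity units and 50.4% to 56.0% of their probes were well above background, against at least 995.5 units and at least 57.0% on the other arrays. Among those other arrays, replicate 3 of day 14 was unusual, with 79.7% of its probes well above background and a median signal of 151.1. The next highest values were 64.6% and 107.7. That array was kept in both sets. The low-signal arrays were separated from the others by the first principal component, which held 49.7% of the variance. At all 3 of these ages they lay above every other array of their age for 39 of 62 members (62.9%, against 50.3% of all genes tested) and below for 11 (17.7%, against 21.7%). Results are therefore given over 24 arrays and over the 19 arrays without these 5. Day 7 and day 14 held no low-signal array, so differences between those ages are the same in both and only their standard errors change. The arrays sat on 3 slides of 8, and each slide held every age. The low-signal replicate 4 was the only day 42 array on its slide. All 13 markers of the lung epithelium looked up, among them the surfactant genes, were above background at every age.

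Most of the guidance genes that passed a test were lower in the older lungs. Between days 7 and 14, 13 members were lower and 1 was higher (limma, Benjamini-Hochberg adjusted p under 0.05 over all 15911 genes), which is 14 of 62 or 22.6%, against 11.6% of all genes. The lower ones made up 21.0% of the members against 5.53% of all genes, and the higher one 1.61% against 6.04%. Between days 1 and 42, 17 were lower and 3 higher, 20 of 62 or 32.3% against 26.7% of all genes, with 27.4% of members lower against 13.7% and 4.84% higher against 13%. Between days 14 and 42, 4 passed, each of them lower, 6.45% against 3.69%. From day 1 to day 4 and from day 4 to day 7, 0 members passed the limma test, where the backgrounds were 0.0628% and 0.00628%. In each step 5 members (8.06%) had an unadjusted p under 0.05, against 5.14% of all genes in the first and 8.47% in the second. Over any of the 5 ages, 25 members passed the limma F-test, 40.3% against 31.7%. The balance depended on the scaling. Quantile normalization gave 5 higher and 13 lower members at day 14 against day 7, 2 higher and 5 lower at day 42 against day 14, and 8 higher and 19 lower at day 42 against day 1. The authors' deposited table gave 7 and 16, 3 and 5, and 11 and 17 for these comparisons. Normexp background correction gave 1 higher and 3 lower at day 42 against day 14. The shares of all genes that passed changed as well. Under quantile normalization they were 18%, 6.12% and 33.1% for the same comparisons in the same order. With the authors' deposited values they were 22.4%, 9.58% and 37.7%. Under normexp the share was 2.97% for day 42 against day 14. These shares count both directions together. In bulk tissue, fewer cells of a type and less RNA per cell cannot be told apart.

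Without the low-signal arrays, 21 members were lower and 12 higher at day 14 than at day 7, which is 53.2% of the members against 38.5% of all genes, with 33.9% lower against 18% and 19.4% higher against 20.5%. For day 42 against day 14 there were 10 lower and 3 higher, 21% against 13.5% of all genes, which is 16.1% lower against 6.81% and 4.84% higher against 6.72%. For day 42 against day 1 there were 21 lower and 11 higher, 51.6% against 46.5%, with 33.9% lower against 24% and 17.7% higher against 22.5%. The F-test called 39 members, 62.9% against 53.8%. In the first 2 steps limma again called 0 members, with backgrounds of 0.0817% and 0.0503%. An unadjusted p under 0.05 was found for 12 and 8 of the 62 members, against 9.18% and 5.34% of all genes. The median difference of the members between day 42 and day 1 was -0.31 over 24 arrays and -0.18 without the 5, against -0.06 and -0.03 for all genes. Between days 14 and 7 it was -0.06, against 0.02 for all genes.

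**Figure D1:**
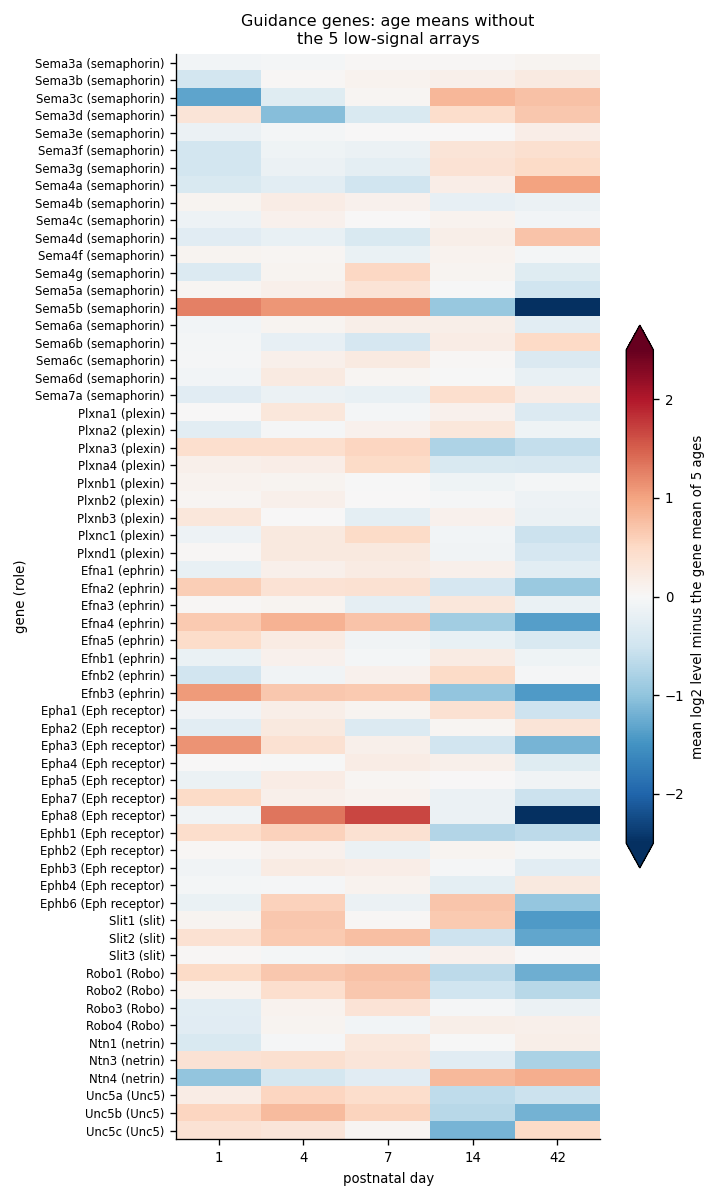
Age means of the 62 tested guidance genes without the 5 low-signal arrays, as log2 level minus the mean of the gene over the 5 ages (colour, red higher and blue lower, saturating at 2.5), with ages from left to right and genes by role from top to bottom. Sema5b, Efna4, Efnb3, Slit2 and Robo1 are blue at days 14 and 42 and Epha8 at day 42, whereas Ntn4 and Sema3c are red there.

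**Figure D2:**
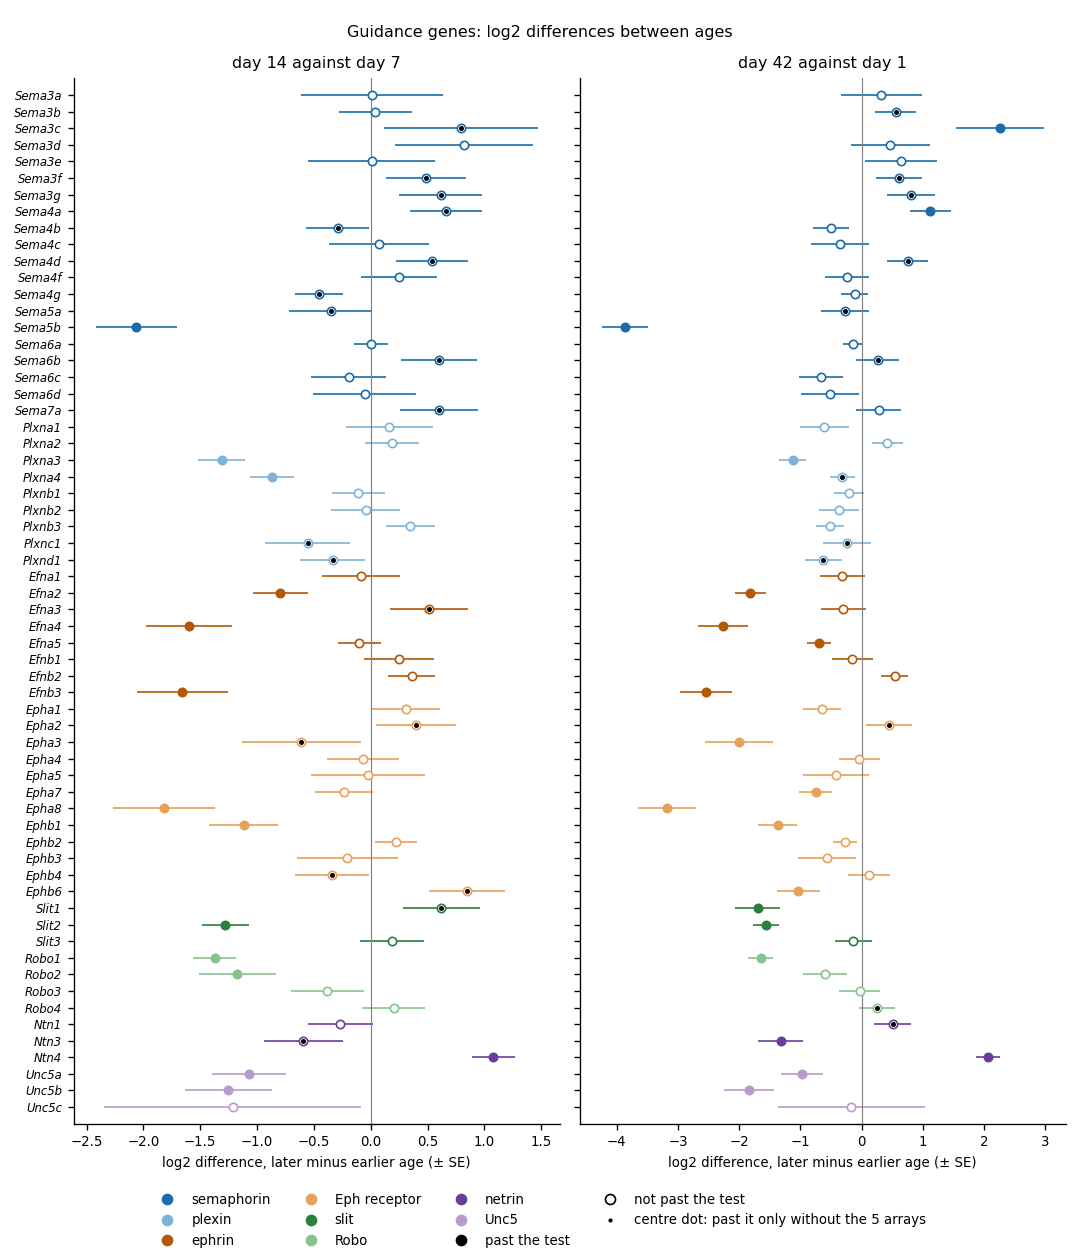
Differences in log2 level between day 14 and day 7 and between day 42 and day 1 for the 62 tested guidance genes over 24 arrays, with limma standard errors as bars. Filled points passed the test and a centre dot marks genes past it only without the 5 low-signal arrays, and 13 of the 14 filled points over 24 arrays for day 14 against day 7 lie left of 0.

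The secreted ligand Slit2 and Robo1, a receptor that binds it, both fell between days 7 and 14. Slit2 stood at 3.16, 2.91, 3.35, 2.47 and 3.10 at day 1, 3.40, 3.41, 3.54, 3.38 and 3.44 at day 4, 3.58, 3.79, 3.56, 3.36 and 3.27 at day 7, 1.91, 2.29, 1.71, 2.18 and 3.08 at day 14, and 1.21, 1.60, 1.56 and 1.37 at day 42. All 5 day 14 arrays lay under all 5 day 7 arrays, and all 4 day 42 arrays lay under both. The difference was -1.28 ± 0.20 (SE) for day 14 against day 7, 2.42-fold lower, with an adjusted p of 0.00019. For day 42 it was -0.80 ± 0.22 against day 14 (adjusted p = 0.0402) and -1.56 ± 0.22 against day 1 (adjusted p = 8.6e-06), and without the low-signal arrays -0.78 ± 0.22 and -1.68 ± 0.25. The call against day 14 was lost in 17 of 35 alternatives, among them normexp background correction, median scaling, the authors' deposited table, no filter on dim probes and the replicate block, with adjusted p-values of 0.0175 to 0.303 over the alternatives. Robo1 stood at 2.56, 2.17, 2.58, 1.90 and 2.58 at day 1, 2.64, 2.63, 2.77, 2.61 and 2.63 at day 4, 2.73, 2.82, 2.77, 2.57 and 2.53 at day 7, 1.14, 1.17, 0.82, 1.27 and 2.16 at day 14, and 0.61, 0.78, 0.83 and 0.61 at day 42. Its day 14 values lay under all day 7 values, with replicate 5 the highest of them, and its day 42 values lay under all day 1 values. The differences were -1.37 ± 0.19 for day 14 against day 7 (adjusted p = 4.83e-05) and -1.65 ± 0.20 for day 42 against day 1 (3.14-fold lower, adjusted p = 1.58e-06), and without the low-signal arrays the last was -1.70 ± 0.23.

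Robo2, a second slit receptor that lies next to Robo1 on chromosome 16 with 0 protein-coding genes between them, stood at 1.10, 1.00, 1.42, -0.41 and 0.51 at day 1, 0.70, 1.51, 0.95, 1.55 and 1.45 at day 4, 1.94, 1.97, 1.87, 1.74 and 1.27 at day 7, 0.23, 0.35, -0.04, 0.69 and 1.70 at day 14, and 0.06, 0.44, 0.64 and -0.65 at day 42. On the day 14 arrays 4 values lay under all day 7 values and replicate 5 lay among them. The difference was -1.17 ± 0.34 (adjusted p = 0.0233). A second probe gave -1.05 ± 0.37 over 24 arrays, and passed only without the low-signal arrays. Between days 42 and 1 the difference of Robo2 was -0.60 ± 0.36 and did not pass, while its second probe passed without the low-signal arrays, at -1.28 ± 0.31. Slit1, better known from the nervous system, stood at -1.31, -1.43, -1.67, 0.10 and -0.54 at day 1, 0.08, -1.08, 0.29, -0.60 and -0.91 at day 4, -1.48, -1.86, -1.22, -1.88 and -1.02 at day 7, -0.84, -0.71, -0.82, -0.54 and -1.44 at day 14, and -2.99, -2.56, -3.31 and -1.81 at day 42. Its 4 day 42 values lay under every value of days 1, 4 and 14, and replicate 4 alone lay within the day 7 values. The differences were -1.80 ± 0.36 against day 14 (adjusted p = 0.0054, 3.47-fold lower) and -1.70 ± 0.36 against day 1 (adjusted p = 0.001), and -2.08 ± 0.23 and -1.48 ± 0.26 without the low-signal arrays. On the 19 other arrays Slit1 was also higher at day 14 than at day 7, by 0.62 ± 0.20. Slit3 did not pass any test, with means of 1.29 ± 0.61 at day 1 and 1.15 ± 0.58 at day 42. Robo4, the endothelial member of the family, was higher only without the low-signal arrays, by 0.40 ± 0.14 for day 42 against day 1, where the 24 arrays gave 0.25 ± 0.29. Robo3, next to Robo4 on chromosome 9, differed by -0.03 ± 0.34 over the same span and did not pass.

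**Figure D3:**
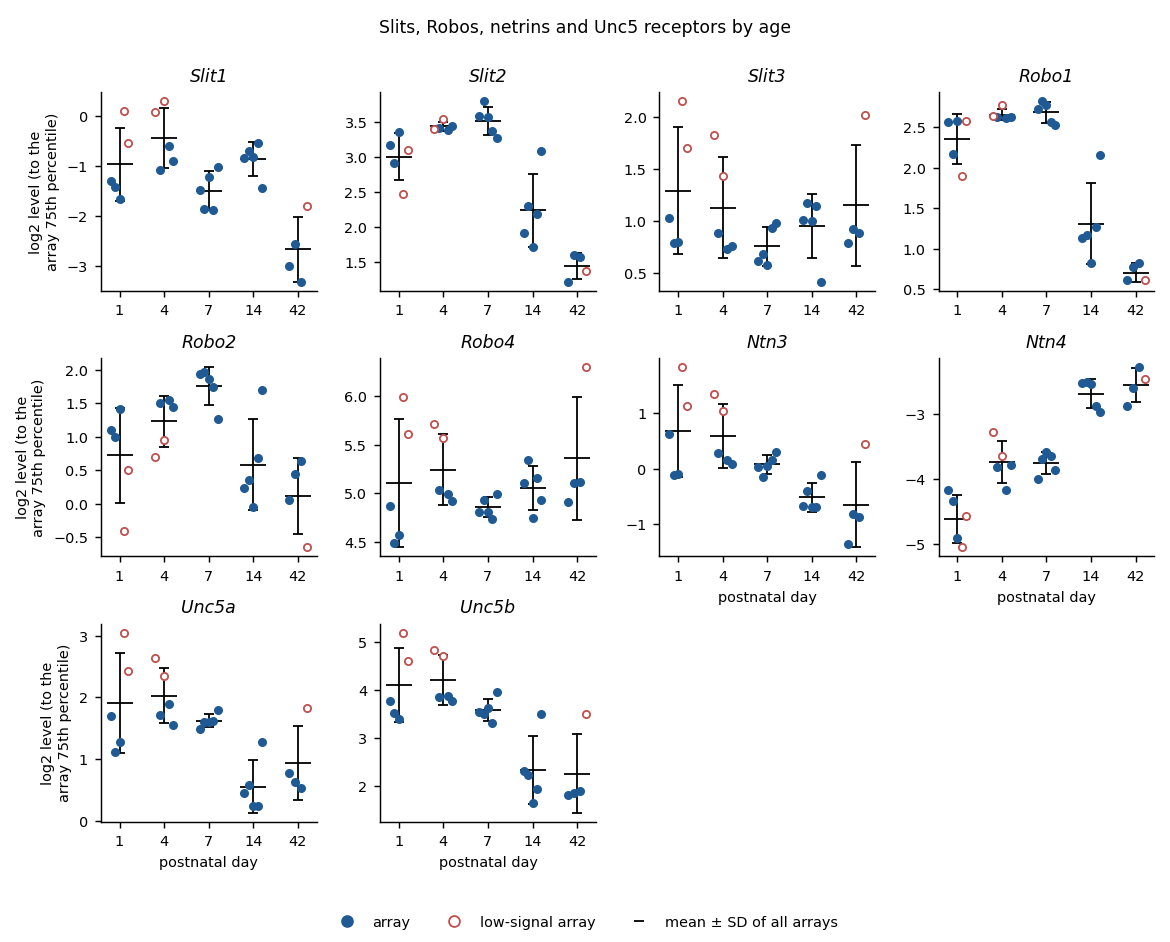
Log2 level by postnatal day of 10 slit, Robo, netrin and Unc5 genes, 1 point per array, with open red circles for the 5 low-signal arrays and bars for the mean ± SD of all arrays of an age. Slit2 and Robo1 drop at day 14 and stay low at day 42, while Ntn4 steps up.

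The promoters of Slit2, Robo1 and Ntn4 are shown because the first pair fell together and the last rose. Each runs from 250 bases before to 50 after the RefSeq start, on the plus strand of GRCm38.p6, at chr5:47982905-47983204 for Slit2, chr16:72662899-72663198 for Robo1 and chr10:93640799-93641098 for Ntn4. Capitals mark a GC box (GGGCGG or CCGCCC) or a TATA box (TATAAA or TTTATA).
Slit2: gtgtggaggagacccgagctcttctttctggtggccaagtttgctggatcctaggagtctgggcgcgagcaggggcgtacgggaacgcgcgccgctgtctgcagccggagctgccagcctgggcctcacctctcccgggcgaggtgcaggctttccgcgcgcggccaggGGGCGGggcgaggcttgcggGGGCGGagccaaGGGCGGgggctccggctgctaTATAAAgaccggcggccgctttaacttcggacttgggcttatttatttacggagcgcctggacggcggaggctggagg
Robo1: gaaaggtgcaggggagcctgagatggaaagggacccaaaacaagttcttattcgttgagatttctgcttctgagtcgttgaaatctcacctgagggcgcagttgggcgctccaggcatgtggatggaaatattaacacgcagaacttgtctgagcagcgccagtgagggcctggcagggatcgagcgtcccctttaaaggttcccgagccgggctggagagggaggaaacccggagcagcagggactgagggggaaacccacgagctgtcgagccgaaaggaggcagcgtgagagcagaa
Ntn4: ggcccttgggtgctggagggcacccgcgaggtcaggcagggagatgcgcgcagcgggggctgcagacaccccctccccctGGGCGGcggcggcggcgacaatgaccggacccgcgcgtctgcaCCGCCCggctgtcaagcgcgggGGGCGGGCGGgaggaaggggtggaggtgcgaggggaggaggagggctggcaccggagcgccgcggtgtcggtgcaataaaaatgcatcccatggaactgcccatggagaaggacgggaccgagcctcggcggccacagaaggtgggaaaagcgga
Slit2 held 3 GC boxes and 1 TATA box, Ntn4 4 GC boxes, of which a pair overlaps, and Robo1 held neither. None of them held a CCAAT box (CCAAT or ATTGG). Of 72 RefSeq promoters of 56 members, 70.8% held a GC box, against 35.7% of all 32851 promoters, 2.8% held a TATA box against 13.6%, and 29.2% a CCAAT box against 37.4%. The median GC content was 64.3% for members and 52.7% for all. These are letter matches in a window and not measured binding. The members on the array are all protein-coding genes, whereas the 32851 promoters were not restricted to such genes. The part of gene type in these shares was not tested.

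Among netrins, Ntn4 rose while Ntn3 and the Unc5 receptors Unc5a and Unc5b fell. Ntn4, a basement membrane netrin that binds laminin, stood at -4.18, -4.34, -4.92, -5.06 and -4.58 at day 1, -3.28, -3.81, -3.65, -4.17 and -3.79 at day 4, -4.00, -3.70, -3.59, -3.64 and -3.87 at day 7, -2.52, -2.51, -2.54, -2.88 and -2.96 at day 14, and -2.88, -2.60, -2.27 and -2.45 at day 42. All day 14 and day 42 values lay above all earlier values. The differences were 1.08 ± 0.19 for day 14 against day 7 (2.11-fold higher, adjusted p = 0.000428) and 2.07 ± 0.20 for day 42 against day 1 (4.19-fold, adjusted p = 6.63e-08), and 1.90 ± 0.20 without the low-signal arrays. Ntn3 stood at 0.62, -0.12, -0.10, 1.83 and 1.13 at day 1, 1.35, 0.28, 1.04, 0.16 and 0.09 at day 4, 0.03, -0.16, 0.05, 0.15 and 0.30 at day 7, -0.68, -0.41, -0.69, -0.70 and -0.11 at day 14, and -1.36, -0.82, -0.87 and 0.44 at day 42. The low-signal arrays were the highest at days 1, 4 and 42, and the groups of day 42 and day 1 overlapped through replicate 4 of day 42. The difference of day 42 against day 1 was -1.32 ± 0.37 (adjusted p = 0.00959), and -1.15 ± 0.20 without those arrays, where day 14 against day 7 also passed at -0.59 ± 0.16. Ntn1, the founding netrin, differed between day 42 and day 1 by 0.51 ± 0.30 on its chosen probe and by -0.65 ± 0.29 on the other, and the chosen probe passed only without the low-signal arrays, at 0.53 ± 0.15. Without those arrays the other probe passed as well, in the opposite direction, at -0.57 ± 0.21, so the direction of Ntn1 depended on the probe.

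Unc5b, a netrin receptor of vascular endothelium, stood at 3.77, 3.53, 3.40, 5.19 and 4.60 at day 1, 4.83, 3.86, 4.71, 3.87 and 3.76 at day 4, 3.54, 3.51, 3.62, 3.31 and 3.95 at day 7, 2.32, 2.24, 1.66, 1.94 and 3.51 at day 14, and 1.81, 1.86, 1.90 and 3.49 at day 42. Replicate 5 of day 14 and replicate 4 of day 42 lay within the earlier values and the other day 14 and day 42 arrays lay under them. The differences were -1.25 ± 0.38 for day 14 against day 7 (adjusted p = 0.0353) and -1.83 ± 0.41 for day 42 against day 1 (adjusted p = 0.0015), and -1.71 ± 0.31 for the last without the low-signal arrays. The first was lost with the slide as a block and under median scaling (adjusted p = 2.11e-07 to 0.11 over the alternatives). Unc5a, a family member known from neurons, stood at 1.69, 1.11, 1.27, 3.05 and 2.42 at day 1, 2.63, 1.72, 2.34, 1.89 and 1.55 at day 4, 1.49, 1.60, 1.60, 1.62 and 1.80 at day 7, 0.44, 0.57, 0.24, 0.23 and 1.27 at day 14, and 0.77, 0.62, 0.53 and 1.83 at day 42. All day 14 values lay under all day 7 values, and day 42 replicate 4 overlapped day 1. The differences were -1.07 ± 0.33 for day 14 against day 7 (adjusted p = 0.0332) and -0.97 ± 0.34 for day 42 against day 1 (adjusted p = 0.0397). Both calls were lost with the slide as a block and under median scaling (adjusted p = 4.02e-07 to 0.0888 and 0.000615 to 0.129 over the alternatives). The last was also lost with no filter on dim probes and, at -0.91, with the replicate number as a block, and without the low-signal arrays it was -0.72 ± 0.21. Unc5c depended on the probe. The brighter probe gave -1.21 ± 1.13 for day 14 against day 7 and -0.17 ± 1.20 for day 42 against day 1, with day 42 values of 6.14, -1.62, -1.46 and -3.93. The other probe, looked at after the values were seen, gave -1.67 ± 0.28 and -2.83 ± 0.30, and its day 42 values of -5.21, -4.61, -5.11 and -3.95 lay under its day 1 values of -1.88, -2.14, -1.97, -1.70 and -1.76. Tested among all 20838 probes on their own, its day 42 difference had an adjusted p of 1.81e-07.

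Semaphorins moved in both directions. Of 20, 1 passed between days 7 and 14 over 24 arrays, a fall, and 2 rose and 1 fell between days 1 and 42. Of all genes, 11.6% and 26.7% passed these 2 comparisons. Sema5b, a transmembrane semaphorin with thrombospondin repeats, stood at -1.98, -2.43, -2.08, -1.08 and -1.51 at day 1, -1.57, -2.32, -1.90, -2.23 and -2.42 at day 4, -2.40, -2.39, -2.36, -2.41 and -2.07 at day 7, -4.97, -4.41, -4.46, -4.88 and -3.22 at day 14, and -5.01, -5.89, -6.97 and -4.84 at day 42. All day 14 values lay under all day 7 values and all day 42 values under all day 1 values, and at day 42 the probe was well above background on 1 of 4 arrays. The differences were -2.06 ± 0.36 for day 14 against day 7 (4.17-fold lower, adjusted p = 0.000402) and -3.86 ± 0.38 for day 42 against day 1 (adjusted p = 7.81e-08). Since 3 of the 4 day 42 arrays were not well above background, the last difference, 14.5-fold lower as measured, is only approximate. A second probe gave -1.84 ± 0.35 and -3.62 ± 0.37. On the 19 arrays left without the low-signal ones the last difference of the chosen probe was -3.79 ± 0.41, and day 42 against day 14 passed as well, at -1.57 ± 0.37. Both rest on 1 of 3 day 42 arrays well above background, so the measured 13.9-fold and 2.97-fold falls are approximate too. On these 19 arrays the second probe gave -1.10 ± 0.39 for day 42 against day 14 and did not pass.

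Sema3c, a secreted class 3 semaphorin that binds neuropilins and is known from cardiac outflow and vessel formation, stood at 2.08, 2.48, 3.04, -0.33 and 0.25 at day 1, 1.04, 3.35, 1.40, 3.62 and 3.70 at day 4, 4.20, 4.15, 4.10, 3.71 and 3.34 at day 7, 4.93, 4.70, 4.56, 4.91 and 4.37 at day 14, and 4.39, 4.64, 4.76 and 1.23 at day 42. The 5 low-signal arrays were the lowest of their ages by more than 1 log2 unit, and the means of the other arrays were 2.53 ± 0.48, 3.56 ± 0.18, 3.90 ± 0.37, 4.69 ± 0.24 and 4.60 ± 0.19 (SD) from day 1 to day 42. The difference of day 42 against day 1 was 2.25 ± 0.72 over 24 arrays (adjusted p = 0.0217) and 2.07 ± 0.24 without them, and that of day 14 against day 7, 0.79 ± 0.19, passed only without them. A second probe, well above background on 24 arrays, gave 1.45 ± 0.57 for day 42 against day 1 and did not pass. Without the low-signal arrays this probe passed, at 1.19 ± 0.29 for that difference and 0.73 ± 0.23 for day 14 against day 7. Sema4a, a transmembrane semaphorin known from T cell priming, stood at 2.67, 2.09, 2.54, 4.01 and 3.59 at day 1, 3.63, 2.53, 3.29, 2.63 and 2.45 at day 4, 2.25, 2.26, 2.30, 2.00 and 2.70 at day 7, 3.03, 3.06, 2.80, 3.05 and 2.89 at day 14, and 3.74, 3.96, 3.72 and 4.97 at day 42. Every day 42 value lay above every day 14 value, while day 42 and day 1 overlapped through the low-signal replicate 4 of day 1. Day 42 was higher than day 1 by 1.12 ± 0.33 (adjusted p = 0.0147) and by 1.37 ± 0.16 without the low-signal arrays, and the call was lost under median scaling. On the 19 other arrays it was also higher by 0.66 ± 0.12 at day 14 than at day 7 and by 0.84 ± 0.14 at day 42 than at day 14. Sema4d, an immune semaphorin that binds Plxnb1 and Cd72, had means of 0.38 ± 0.79, 0.25 ± 0.49, -0.28 ± 0.20, 0.26 ± 0.16 and 1.14 ± 0.66 from day 1 to day 42 and passed only the F-test over 24 arrays (adjusted p = 0.03). On the 19 other arrays Sema4d was higher by 0.54 ± 0.12 at day 14 than at day 7, by 0.55 ± 0.13 at day 42 than at day 14 and by 0.99 ± 0.15 at day 42 than at day 1.

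A further 10 semaphorins passed only without the low-signal arrays. There, 11, 5 and 9 of the 20 passed for days 14 against 7, 42 against 14 and 42 against 1. The shares of all genes were 38.5%, 13.5% and 46.5%. For day 14 against day 7 the class 3 ligands Sema3f and Sema3g were higher by 0.48 ± 0.13 and 0.62 ± 0.18. The same arrays put Sema6b, a transmembrane ligand of plexin A receptors, higher by 0.60 ± 0.12, and Sema7a, a lipid-anchored ligand of Plxnc1, higher by 0.60 ± 0.15. Sema4b, Sema4g and Sema5a were lower, with differences of -0.29 ± 0.10, -0.45 ± 0.17 and -0.35 ± 0.12. For day 42 against day 1, Sema3b, Sema3f, Sema3g and Sema6b were higher by 0.69 ± 0.16, 0.85 ± 0.16, 0.94 ± 0.24 and 0.54 ± 0.16, and Sema5a was lower, at -0.55 ± 0.15. Sema6a and Sema5a were lower at day 42 than at day 14, with differences of -0.42 ± 0.13 and -0.49 ± 0.13, and Sema6c passed only the F-test. The other semaphorins, Sema3a, Sema3d, Sema3e, Sema4c, Sema4f and Sema6d, passed no test on their chosen probes. Without the low-signal arrays a second probe of Sema6d gave -0.35 ± 0.10 for day 14 against day 7 and one of Sema3a gave -0.56 ± 0.19 for day 42 against day 1, and both passed. Among day 4 arrays Sema3d was well above background on 0 of 5, and among day 1 arrays on 2 of 5.

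**Figure D4:**
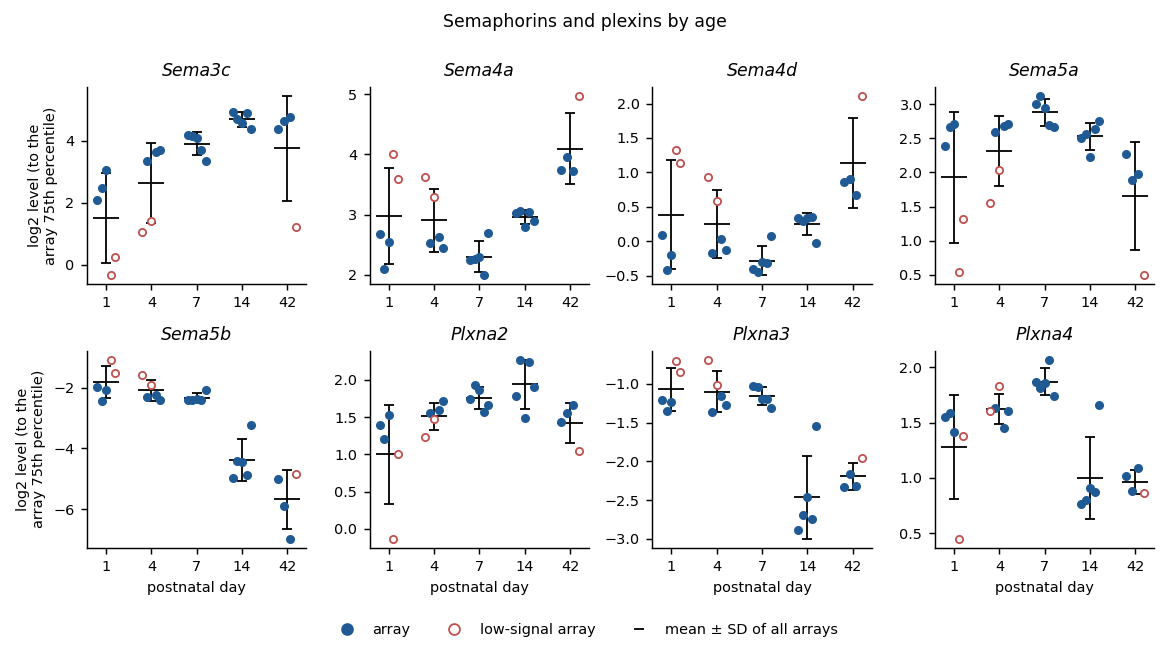
Log2 level by postnatal day of 8 semaphorin and plexin genes, 1 point per array, with open red circles for the 5 low-signal arrays and bars for the mean ± SD of all arrays of an age. Sema5b and Plxna3 drop at day 14, and the open circles of Sema3c lie far under the other arrays of days 1, 4 and 42.

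Among the 9 plexins, 2 passed between days 7 and 14, both falling, where 11.6% of all genes passed and 5.53% fell. Plxna3, a receptor for class 3 semaphorins with neuropilins, stood at -1.21, -1.35, -1.24, -0.71 and -0.85 at day 1, -0.69, -1.37, -1.02, -1.16 and -1.27 at day 4, -1.03, -1.04, -1.19, -1.20 and -1.31 at day 7, -2.88, -2.69, -2.46, -2.74 and -1.55 at day 14, and -2.33, -2.17, -2.32 and -1.96 at day 42. All day 14 and day 42 values lay under all earlier values. The differences were -1.31 ± 0.21 for day 14 against day 7 (2.48-fold lower, adjusted p = 0.000163) and -1.12 ± 0.22 for day 42 against day 1 (adjusted p = 0.00041), and -1.01 ± 0.23 for the last without the low-signal arrays. Plxna4, a related receptor, stood at 1.55, 1.59, 1.42, 0.45 and 1.38 at day 1, 1.61, 1.63, 1.83, 1.45 and 1.61 at day 4, 1.87, 1.81, 1.86, 2.07 and 1.74 at day 7, 0.76, 0.80, 0.91, 0.87 and 1.66 at day 14, and 1.02, 0.88, 1.09 and 0.86 at day 42. The day 14 values lay under all day 7 values, with replicate 5 the highest of them. The difference was -0.87 ± 0.19 (adjusted p = 0.00397), and for day 42 against day 1 it was -0.32 ± 0.21, which passed only without the low-signal arrays at -0.52 ± 0.18. A second probe of Plxna4, well above background on 6 arrays, gave -0.60 ± 0.40 for the first and did not pass. For the last it gave -0.67 ± 0.44 without the low-signal arrays and did not pass either. Plxna2, which also pairs with neuropilins, stood at 1.40, 1.20, 1.53, -0.13 and 1.00 at day 1, 1.23, 1.56, 1.47, 1.60 and 1.71 at day 4, 1.74, 1.93, 1.87, 1.57 and 1.66 at day 7, 1.79, 2.27, 1.49, 2.24 and 1.91 at day 14, and 1.43, 1.55, 1.66 and 1.04 at day 42. Its values overlapped between neighbouring ages, and it passed only the F-test (adjusted p = 0.0292). Plxnc1, the receptor of Sema7a, had means of 0.07 ± 0.92, 0.67 ± 0.53, 1.29 ± 0.26, 0.73 ± 0.22 and -0.17 ± 0.86 from day 1 to day 42 and passed the F-test (adjusted p = 0.0317). It was lower in 3 comparisons without the low-signal arrays, at -0.56 ± 0.13 for day 14 against day 7, -0.47 ± 0.15 for day 42 against day 14 and -0.42 ± 0.16 for day 42 against day 1. A second probe, well above background on 24 arrays, shared the first and last calls, at -0.48 ± 0.12 and -0.84 ± 0.15. For day 42 against day 14 this probe gave -0.31 ± 0.14 without the low-signal arrays and did not pass. Plxnd1, the endothelial receptor of Sema3e, was lower without them, by a difference of -0.33 ± 0.11 for day 14 against day 7 and of -0.45 ± 0.14 for day 42 against day 1, against -0.62 ± 0.30 over 24 arrays, which did not pass. Its other probe, looked at after the values were seen, gave -0.86 ± 0.29 for this difference and passed (adjusted p = 0.0269). Plxna1, Plxnb1, Plxnb2 and Plxnb3 passed no test.

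Of the 8 ephrins, 3 passed between days 7 and 14 and 4 between days 1 and 42, and each of these fell. Of all genes, 11.6% and 26.7% passed these comparisons, with 5.53% and 13.7% lower. Efna4, a lipid-anchored ligand of EphA receptors, stood at 0.07, -0.40, -0.52, 1.39 and 0.80 at day 1, 0.94, 0.03, 0.75, -0.16 and -0.06 at day 4, -0.35, -0.46, -0.16, -0.31 and 0.21 at day 7, -2.06, -2.00, -2.19, -2.34 and -0.48 at day 14, and -2.30, -2.28, -2.34 and -1.06 at day 42. The day 14 values lay under all day 7 values, replicate 5 only just, and the day 42 values lay under all day 1 values. The differences were -1.60 ± 0.38 for day 14 against day 7 (adjusted p = 0.00615) and -2.26 ± 0.40 for day 42 against day 1 (4.8-fold lower, adjusted p = 0.000151), and -2.02 ± 0.34 for the last without the low-signal arrays. Its neighbours Efna3 and Efna1 on chromosome 3, with 0 protein-coding genes between each pair, differed by -0.30 ± 0.36 and -0.31 ± 0.36 for day 42 against day 1 and did not pass. Efna3 was higher at day 14 than at day 7 by 0.51 ± 0.16 without the low-signal arrays, whereas Efna1 passed no test. Efnb3, a transmembrane ephrin best known from the spinal cord midline, stood at -1.27, 1.17, -1.66, -0.14 and -1.10 at day 1, -0.09, -0.87, -0.27, -0.98 and -1.03 at day 4, -1.15, -1.14, -0.92, -1.05 and -0.64 at day 7, -3.07, -3.04, -2.71, -2.97 and -1.39 at day 14, and -3.01, -2.92, -3.22 and -3.39 at day 42. The day 14 values lay under all day 7 values and the day 42 values under all day 1 values, and day 1 replicate 2 lay above all the other arrays. For day 14 against day 7 the difference was -1.66 ± 0.40 (adjusted p = 0.00693), and for day 42 against day 1 it was -2.54 ± 0.42 (5.81-fold lower, adjusted p = 7.57e-05), or -2.47 ± 0.54 without the low-signal arrays.

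Efna2, another lipid-anchored ligand, stood at -1.47, -1.78, -1.89, -0.40 and -0.96 at day 1, -1.01, -1.90, -1.51, -1.92 and -2.06 at day 4, -1.87, -1.86, -2.03, -2.02 and -1.91 at day 7, -2.88, -2.96, -2.67, -2.83 and -2.35 at day 14, and -3.09, -3.36, -3.29 and -2.73 at day 42. Day 14 lay under day 7 and day 42 under day 1 with no overlap. For day 14 against day 7 the difference was -0.80 ± 0.24 (adjusted p = 0.0335), and for day 42 against day 1 it was -1.82 ± 0.26 (3.53-fold lower, adjusted p = 1.06e-05). The first was lost with the slide as a block, under median scaling and under normexp, where it was -0.54 (adjusted p = 1.2e-06 to 0.134 over the alternatives). Without the low-signal arrays the last was -1.53 ± 0.14, and day 42 against day 14 passed at -0.51 ± 0.13. Efna5 had means of 0.43 ± 0.48, 0.47 ± 0.07, 0.16 ± 0.09, 0.06 ± 0.13 and -0.27 ± 0.38 from day 1 to day 42, and the difference of day 42 against day 1 was -0.70 ± 0.20 (adjusted p = 0.011), or -0.83 ± 0.15 without the low-signal arrays, and it did not pass in the authors' deposited table. Efnb2, the arterial ephrin, stood at 2.43, 2.07, 2.15, 1.32 and 2.27 at day 1, 2.34, 2.60, 2.55, 2.69 and 2.54 at day 4, 2.78, 2.80, 2.69, 3.29 and 2.52 at day 7, 3.24, 3.23, 3.70, 3.13 and 2.60 at day 14, and 2.42, 2.77, 2.84 and 2.32 at day 42. Day 14 had the highest mean, its values overlapped those of day 7, and the gene passed only the F-test (adjusted p = 0.00285). Efnb1 passed no test.

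**Figure D5:**
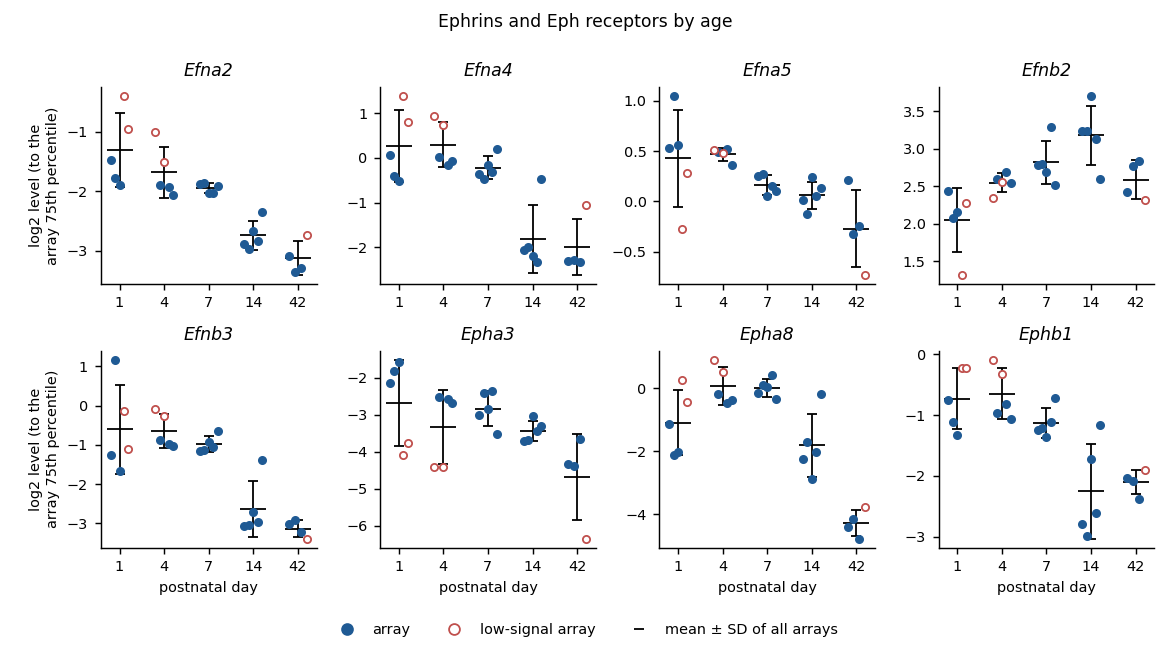
Log2 level by postnatal day of 8 ephrin and Eph receptor genes, 1 point per array, with open red circles for the 5 low-signal arrays and bars for the mean ± SD of all arrays of an age. Efna2, Efna4, Efnb3 and Ephb1 step down at day 14, and Epha8 falls again at day 42.

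Of the 12 Eph receptors tested, 2 fell between days 7 and 14, 2 between days 14 and 42 and 5 between days 1 and 42. The shares of all genes that fell were 5.53%, 1.51% and 13.7%. Epha8, a receptor of A ephrins known mainly from the brain, stood at -1.14, -2.13, -2.03, 0.26 and -0.44 at day 1, 0.90, -0.18, 0.50, -0.48 and -0.37 at day 4, -0.17, 0.09, 0.03, 0.41 and -0.34 at day 7, -2.24, -1.72, -2.90, -2.03 and -0.20 at day 14, and -4.40, -4.17, -4.78 and -3.77 at day 42. The day 42 values lay under all others of the series, and day 14 overlapped day 7 through replicate 5 alone. The differences were -1.82 ± 0.45 for day 14 against day 7 (adjusted p = 0.00816), -2.46 ± 0.47 for day 42 against day 14 (adjusted p = 0.00383) and -3.18 ± 0.47 for day 42 against day 1 (9.08-fold lower, adjusted p = 2.03e-05). Without the low-signal arrays the last was -2.68 ± 0.46. Ephb1, a receptor of B ephrins, stood at -0.75, -1.12, -1.32, -0.23 and -0.22 at day 1, -0.09, -0.96, -0.32, -0.81 and -1.06 at day 4, -1.25, -1.22, -1.36, -1.12 and -0.72 at day 7, -2.79, -2.98, -1.72, -2.61 and -1.16 at day 14, and -2.03, -2.08, -2.38 and -1.91 at day 42. Replicate 5 of day 14 lay within the day 7 values and the other day 14 arrays lay under them. The differences were -1.12 ± 0.30 for day 14 against day 7 (adjusted p = 0.0156) and -1.37 ± 0.32 for day 42 against day 1 (adjusted p = 0.00228), and -1.10 ± 0.35 for the last without the low-signal arrays. The first was lost under normexp (adjusted p = 6.06e-05 to 0.0621 over the alternatives).

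Ephb6, a family member whose kinase domain is inactive, averaged 1.64 ± 0.58 at day 42 (SD, n = 4), against 3.03 ± 0.38 at day 14 (SD, n = 5). The difference of day 42 was -1.39 ± 0.35 against day 14 (adjusted p = 0.028) and -1.03 ± 0.35 against day 1 (adjusted p = 0.0331), and -1.67 ± 0.23 and -0.79 ± 0.26 without the low-signal arrays. On the 19 other arrays it was higher at day 14 than at day 7, by 0.84 ± 0.20. Its second probe gave 0.47 ± 0.19 for that rise and did not pass. Over 24 arrays the second probe gave -0.28 ± 0.24 for day 42 against day 14 and 0.30 ± 0.24 for day 42 against day 1. The probes thus did not share the direction against day 1. Both day 42 calls were lost with the mean of the probes and under median scaling. Epha3 averaged -4.68 ± 1.16 at day 42, against -2.68 ± 1.16 at day 1, a difference of -2.01 ± 0.56 (adjusted p = 0.00863), and its low-signal arrays were the lowest of their ages. Without them the difference was -2.28 ± 0.27, and day 14 against day 7 passed at -0.61 ± 0.21. Epha7 averaged -2.26 ± 0.41 at day 42, against -1.51 ± 0.66 at day 1, a difference of -0.75 ± 0.27 (adjusted p = 0.0438), or -1.01 ± 0.23 without the low-signal arrays. The call was lost in 17 of 35 alternatives, among them the authors' deposited table, no filter on dim probes and the mean of its probes (adjusted p = 0.00159 to 0.198 over the alternatives), and its other probes gave -0.54 ± 0.45 and -0.67 ± 0.47. Without the low-signal arrays, Epha2, an epithelial receptor, was higher at day 14 than at day 7 by 0.40 ± 0.15 and at day 42 than at day 1 by 0.59 ± 0.19. On the same arrays Ephb4, the venous receptor of Efnb2, differed by -0.34 ± 0.13 at day 14 against day 7 and 0.49 ± 0.15 at day 42 against day 14, where its other probe gave -0.03 ± 0.09 and, in the opposite direction, -0.37 ± 0.10, and Epha1 was lower at day 42 than at day 14, at -0.89 ± 0.16. Epha4, Ephb2 and Ephb3 passed no test. Epha5 passed none on its chosen probe, at -0.42 ± 0.53 for day 42 against day 1, but its other probe, well above background on 9 arrays and looked at after the values were seen, gave -2.18 ± 0.50 (adjusted p = 0.0019). Over the 19 members whose chosen probes passed no test in either set of arrays, differences of day 42 against day 1 ran from -0.61 to 0.64 over 24 arrays.

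The 14 members that passed between days 7 and 14 had this in common: in all 14, replicate 5 of day 14 was the nearest of the day 14 arrays to the day 7 values. This was so for 88.5% of the 1841 genes of the whole array past the same test. A list of 12 cell cycle genes moved in the same interval, with 10 of them lower, and its summed log2 level on the day 14 arrays was 4.16, 4.15, 4.08, 4.16 and 5.32, against 5.77 to 5.99 on the day 7 arrays. Of 9 mesenchymal, pericyte and smooth muscle markers, 6 were lower and 1 higher at day 42 than at day 1, with a summed level of 7.27 to 8.49 at day 42, against 8.36 to 10.06 at day 1. Of 12 neuron and Schwann cell markers, 2 were higher over the same span, with a summed level of 5.31 to 5.67 at day 42, against 4.51 to 5.61 at day 1. Within that list Nefl was well above background on no array of day 42. Of 12 endothelial markers, 1 was higher, with a summed level of 8.61 to 10.07 at day 42, against 8.35 to 10.12 at day 1. Macrophage and dendritic markers were higher in 7 of 8, with a summed level of 6.06 to 7.09 at day 42, against 4.77 to 6.40 at day 1. T, NK and B cell markers were higher in 8 of 10, at 5.05 to 6.06 at day 42, against 2.83 to 4.12 at day 1. Among neighbouring tissues, 3 of 5 adipose markers were higher, with a summed level of 3.14 to 8.15 at day 42, against -1.22 to 1.85 at day 1. Of 3 tested thymus markers 1 was higher, with a summed level of -0.86 to 0.62 at day 42, against -2.35 to -0.94 at day 1, and 1 of 8 cardiac muscle markers was lower, at 6.39 to 7.78 at day 42, against 5.55 to 9.92 at day 1. Of all genes, 26.7% passed for day 42 against day 1 over 24 arrays and 46.5% without the low-signal arrays. Without those arrays 8 of 8 macrophage and dendritic and 10 of 10 T, NK and B cell markers were higher. Endothelial markers were then higher in 7 of 12 (58.3%), with a summed level of 8.61 to 8.95 at day 42, against 8.35 to 8.83 at day 1. Of the 13 lung epithelium markers 10 were higher, against 2 over 24 arrays. The counts of the mesenchymal, neuron and Schwann cell, adipose, thymus and cardiac muscle lists stayed the same. All 12 cell cycle genes were then lower at day 14 than at day 7. The part of these cell types, of the neighbouring tissues and of replicate 5 in the guidance gene results was not tested.

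Over the 5 comparisons, 38 differences of single members passed. Each slide held all ages, and in 6 of these 38, all for day 42 against day 1, the difference within 1 slide ran the other way. These were 0.08 for Efna5 on slide 1 and, on slide 3, whose single day 42 array is low-signal, 0.45 for Ephb6, 0.55 for Ntn3, -1.81 for Sema3c, 0.56 for Unc5a and 0.09 for Unc5b. With the slide as a block 34 of 38 passed, and Efna2, Unc5a and Unc5b for day 14 against day 7 and Unc5a for day 42 against day 1 did not. Leaving out 1 array at a time ended 13 of the 38 calls in at least 1 case: Efna2, Ephb1, Robo2, Unc5a and Unc5b for day 14 against day 7, Ephb6 and Slit2 for day 42 against day 14, and Epha7, Ephb6, Ntn3, Sema3c, Sema4a and Unc5a for day 42 against day 1.

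Co-receptors and signal transducers of the same pathways were counted from a list of 54 genes, of which 52 were tested. Between days 7 and 14, 1 was higher and 4 were lower over 24 arrays, 9.62% of the list against 11.6% of all genes. Cd72, the B cell receptor of Sema4d, rose by 1.83 ± 0.25. Dpysl4, a cytosolic phosphoprotein of the semaphorin response, differed by -2.38 ± 0.39, the adaptor Grb10 by -1.16 ± 0.22, the actin regulator Enah by -0.83 ± 0.20 and the slit-Robo effector Srgap1 by -0.66 ± 0.18, all lower at day 14. For day 42 against day 1, 7 were higher and 11 lower, 34.6% against 26.7%. Rnd1, a small GTPase that binds plexins, differed by 2.04 ± 0.32, and the slit-Robo effectors Srgap2 and Srgap3 differed by 0.51 ± 0.16 and 0.84 ± 0.17. On the lower side, the class 3 co-receptor Nrp2 differed by -0.81 ± 0.20, the netrin receptor Neo1 by -1.30 ± 0.22, Gpc1, a proteoglycan that binds slits, by -1.62 ± 0.35, and Crmp1, a relative of Dpysl4, by -1.75 ± 0.34. Without the low-signal arrays the counts were 9 higher and 13 lower for day 14 against day 7, and 12 higher and 15 lower for day 42 against day 1, which is 42.3% against 38.5% of all genes and 51.9% against 46.5%.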

How the data were processed

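RNA of 24 lung samples was measured on 1-colour arrays. The deposited scans give each spot a processed signal, an intensity from which Agilent Feature Extraction had subtracted background. The file headers name version 10.7.3.1 and the submitters' processing notes version 10.7.1.1. The authors' deposited log2 table, whose scaling method and centring are not given in the sources used here, served as an alternative only. Here log2 of the processed signal was taken minus the 75th percentile of the non-control spots of each array. Controls and non-uniform spots were dropped, and spots of a probe were averaged. Of 55681 probes, 26056 matched 1 of 19752 symbols through unversioned RefSeq accessions, 29625 matched none, and 138 had no usable spot on some array. The RefSeq table is of GRCm38.p6 and was used for names and for the order of neighbouring genes. Each gene took its probe with the highest mean, and testing required 4 or more arrays well above background. A mean per age was fitted over all 24 arrays with limma 3.58.1 in R 4.3.3, with 5 differences between ages and an F-test, and p-values were adjusted by Benjamini-Hochberg over 15911 genes. Members were called at an adjusted p under 0.05. A cell marker list's summed level is log2 of its summed linear levels.

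Alternatives were normexp background correction (offset 50), median scaling, quantile normalization, the deposited log2 table, other filters and probe rules, slide and replicate blocks, and leaving out arrays. The number of arrays limits the precision. The members and all gene lists were chosen with earlier results of these data known. The values of 1 gene of the neuron and Schwann cell marker list are not reported here. Every member is named, members past a test are described by age, and up to 6 of the smallest F-test p-values in each of 4 families have their arrays listed. Replicate numbers share no animal or batch in the labels. Deviations of same-numbered arrays correlated at over 0.1 in every pair only between day 42 and day 1 (0.38 to 0.88), where replicate 4 is a low-signal array at both ages. The other 4 comparisons ran from -0.85 to 0.60, and the replicate block is an alternative.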

Additional observations from a re-analysis of the deposited data

Results flagged for a closer look

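Within groups of 4 or 5 arrays, a single array whose gap to its nearest neighbour was large for the range of its group was found 22 times among 210 groups of 42 genes, and 12 of these were on the low-signal arrays. Chance gives about 1 in 20 groups. The low-signal replicate 4 of day 42 stood apart from the other 3 day 42 arrays in 10 members, by log2 level. Efna3 was -1.34 there, with the others at -3.03 to -2.85. Efna4 was -1.06 there, with the others at -2.34 to -2.28. Plxnc1 was -1.45 there, with the others at 0.16 to 0.38. Robo4 was 6.30 there, with the others at 4.91 to 5.12. Sema3b was 5.56 there, with the others at 3.97 to 4.20. Sema3c was 1.23 there, with the others at 4.39 to 4.76. Sema3f was 6.75 there, with the others at 5.09 to 5.37. Sema4d was 2.11 there, with the others at 0.67 to 0.90. Sema6b was -0.47 there, with the others at -1.90 to -1.69. Unc5b was 3.49 there, with the others at 1.81 to 1.90.

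Replicate 5 of day 14, which is not a low-signal array, stood apart from the other 4 day 14 arrays in 6 members. Efna4 was -0.48, against -2.34 to -2.00. Efnb3 was -1.39, against -3.07 to -2.71. Plxna4 was 1.66, against 0.76 to 0.91. Plxnc1 was 1.10, against 0.57 to 0.72. Sema4d was -0.03, against 0.30 to 0.35. Sema6a was 0.50, against 0.97 to 1.04. Low-signal arrays of days 1 and 4 stood apart for Plxna4 and Robo1, and other arrays for Efna5, Ntn1, Sema4d and Sema5b. Efna5 at day 4 replicate 5 was 0.36, with the others of that age at 0.48 to 0.52. Ntn1 at day 7 replicate 4 was 0.81, with the others of that age at 0.48 to 0.56. Plxna4 at day 1 replicate 4 was 0.45, with the others of that age at 1.38 to 1.59. Robo1 at day 4 replicate 3 was 2.77, with the others of that age at 2.61 to 2.64. Sema4d at day 7 replicate 5 was 0.07, with the others of that age at -0.45 to -0.30. Sema5b at day 7 replicate 5 was -2.07, with the others of that age at -2.41 to -2.36. The causes were not tested.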

How the results depend on the processing

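Of the 38 differences of single members that passed over 24 arrays, 24 passed in every alternative run, 14 lost the call in at least 1, and 0 changed direction. Without the 5 low-signal arrays the counts of members past the test were 33 for day 14 against day 7, 13 for day 42 against day 14, 32 for day 42 against day 1 and 39 for the F-test, where the share of all genes rose too (38.5%, 13.5%, 46.5% and 53.8%). Leaving out replicate 5 of day 14 as well, chosen after seeing the data, gave 38, 14, 35 and 42, and 2 for day 4 against day 1. The shares of all genes rose there as well, to 44.7%, 14.2%, 48.4%, 57% and 1.63%. The authors' table gave 23 for day 14 against day 7 (22.4% of all genes), 8 for day 42 against day 14 (9.58%) and 1 for day 4 against day 1 (0.622%). Quantile normalization gave 7 (6.12% of all genes) and median scaling 2 (2.92%) for day 42 against day 14. Median scaling moved the median difference of all genes there to 0.276, against 0.0666. The cause was not tested. Leaving out 1 array gave 0 to 1 members for day 4 against day 1 (1 without replicate 5 of day 14), 0 to 0 for day 7 against day 4, 9 to 14 for day 14 against day 7 (9 without replicate 1 or 2 of day 14), 2 to 6 for day 42 against day 14 (2 without replicate 2 or 4 of day 14 or replicate 2 or 3 of day 42), 16 to 22 for day 42 against day 1 and 22 to 28 for the F-test. In the same order, the shares of all genes were 0.0251% to 0.308%, 0.00628% to 0.0817%, 8.46% to 14.9%, 2.25% to 5.47%, 22% to 36.8% and 27.6% to 39.5%. For day 14 against day 7, leaving out 1 array ended the calls of Efna2 without replicates 1, 2, 3, 4, 5 of day 7 or replicates 1, 2, 3, 4 of day 14 (highest adjusted p = 0.0903, lowest over all omissions 0.0089), Ephb1 without replicates 1, 2 of day 14 (highest adjusted p = 0.0621, lowest over all omissions 0.000879), Robo2 without replicates 1, 2, 3 of day 7 or replicates 1, 2, 3 of day 14 (highest adjusted p = 0.0799, lowest over all omissions 0.00233), Unc5a without replicates 1, 2, 3, 4, 5 of day 7 or replicates 1, 2, 3, 4 of day 14 (highest adjusted p = 0.0888, lowest over all omissions 0.0114) and Unc5b without replicates 1, 2, 3, 5 of day 7 or replicates 1, 2, 3, 4 of day 14 (highest adjusted p = 0.11, lowest over all omissions 0.00539). For day 42 against day 14, leaving out 1 array ended the calls of Ephb6 without replicates 2, 3, 4 of day 14 or replicates 1, 2, 3 of day 42 (highest adjusted p = 0.0909, lowest over all omissions 0.0117) and Slit2 without replicates 2, 4, 5 of day 4 or replicates 1, 3 of day 7 or replicates 2, 4, 5 of day 14 or replicates 1, 2, 3, 4 of day 42 (highest adjusted p = 0.126, lowest over all omissions 0.0175). For day 42 against day 1, leaving out 1 array ended the calls of Epha7 without replicates 1, 2, 3 of day 1 or replicates 2, 3, 4, 5 of day 4 or replicates 1, 3 of day 7 or replicates 1, 2, 4 of day 14 or replicates 1, 4 of day 42 (highest adjusted p = 0.12, lowest over all omissions 0.00951), Ephb6 without replicates 4, 5 of day 1 or replicates 1, 2, 3 of day 42 (highest adjusted p = 0.119, lowest over all omissions 0.00752), Ntn3 without replicate 1 of day 42 (highest adjusted p = 0.0512, lowest over all omissions 0.000991), Sema3c without replicates 4, 5 of day 1 or replicates 1, 2, 3 of day 42 (highest adjusted p = 0.0862, lowest over all omissions 0.000855), Sema4a without replicate 4 of day 42 (highest adjusted p = 0.0562, lowest over all omissions 0.00179) and Unc5a without replicates 4, 5 of day 1 or replicates 1, 2, 3 of day 42 (highest adjusted p = 0.129, lowest over all omissions 0.00686). The replicate block gave 14 for day 14 against day 7, 3 for day 42 against day 14, 19 for day 42 against day 1, 23 for the F-test and 0 for the first 2 steps. Of all genes, 10.8%, 3.19%, 24.2% and 28.6% passed there, and 0.044% and 0.00628% in the first 2 steps. This block ended the calls of Slit2 for day 42 against day 14 (-0.76) and of Unc5a for day 42 against day 1 (-0.91), and no other. Arrays with less signal over background limit the dim probes of Robo3, Sema3d and Sema5b. Each probe tested on its own, also chosen after seeing the data, gave over 24 arrays falls of Unc5c, Epha5 and Plxnd1 that their chosen probes did not.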
